A study of Homo sapiens with 4 samples.

Results

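This account describes interferon-stimulated genes in HuH7 cells given shRNA against MKL1 and MKL2, called knockdown cells after their labels. The set holds 43 genes listed by name, of which 41 were measured among 18417 genes tested, each through the probe that names that gene alone and had the highest mean over the 4 arrays. STAT2 had no such probe, and the probe of GBP1 also lists GBP3 and the pseudogene GBP1P1, so neither was tested. HuH7 is a human hepatocellular carcinoma line, kept below passage 10 in medium with 10% serum. Lentivirus from the pLKO.1 vector, packaged in HEK293T cells, delivered either a control shRNA (2 samples) or shRNA against MKL1 and MKL2 (2 samples), and both groups then had 7 days of puromycin. MKL1 and MKL2, now MRTFA and MRTFB, are cofactors of serum response factor (SRF). All 4 samples therefore carried a viral vector and an shRNA, uninfected and interferon-treated cells are not analysed here, and the titles call the samples biological replicates without naming separate infections. Each sample was 1 array of log2 expression values, so p-values measure only the spread between these arrays, and 2 arrays per group limit the precision.

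Interferons are secreted proteins that signal through paired receptors and the JAK kinases. Type I and type III interferons act through a complex that contains STAT2 and IRF9 and binds the interferon-stimulated response element (ISRE) in promoters, whereas interferon gamma acts mainly at the GAS element. The genes induced this way encode sensors of viral RNA, proteins that block entry, translation or replication of viruses, and parts of the antigen presentation machinery. Hepatocytes make and respond to these proteins in viral hepatitis.

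The promoters of the members are shown first, because the ISRE is the feature these genes are known for. RefSeq promoter windows (GRCh38.p14), from 250 bases before to 50 bases after an annotated gene start, were found for 33 of the 43 members. The ISRE was searched on both strands as GAAA, any 2 bases, GAAA. It was present for 22 of the 33 members (66.7%), against 4.38% of 27305 genes with a window. Of the other interferon pathway lists described below, it was present for 84.6% of antigen processing genes and 62.5% of other interferon-inducible genes. In the remaining lists the share ran from 0.0% for receptors to 36.4% for ligands. The GAS letters (TTC, any 3 bases, GAA) were present for 9 members (27.3%, against 9.38%), and the CArG box, the element that SRF binds, for ISG15 and GBP1 (6.06%, against 1.6%). A match is a description of the letters and does not show that a factor binds there. The windows below belong to the 4 members with the smallest limma p among those that had an ISRE and whose unadjusted p was under 0.05. They include 3 genes that lay higher in knockdown cells (IFITM3, IFIT3 and PARP9) and 1 that lay lower (SAMD9). IFITM3 is at chr11:320811-321110 (minus strand), IFIT3 at chr10:89327747-89328046 (plus strand), SAMD9 at chr7:93117930-93118229 (minus strand) and PARP9 at chr3:122564251-122564550 (minus strand). IFIT3 has a second window that also held the element, and PARP9 has a second window without it. Each is written 5′ to 3′ on the gene's strand, with ISRE matches in capitals.
IFITM3: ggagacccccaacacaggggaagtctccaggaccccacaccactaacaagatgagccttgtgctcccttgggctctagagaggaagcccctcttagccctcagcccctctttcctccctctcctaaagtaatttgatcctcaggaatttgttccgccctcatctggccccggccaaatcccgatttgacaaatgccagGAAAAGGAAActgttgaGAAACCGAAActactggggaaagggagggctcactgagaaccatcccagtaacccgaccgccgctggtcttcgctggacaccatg
IFIT3: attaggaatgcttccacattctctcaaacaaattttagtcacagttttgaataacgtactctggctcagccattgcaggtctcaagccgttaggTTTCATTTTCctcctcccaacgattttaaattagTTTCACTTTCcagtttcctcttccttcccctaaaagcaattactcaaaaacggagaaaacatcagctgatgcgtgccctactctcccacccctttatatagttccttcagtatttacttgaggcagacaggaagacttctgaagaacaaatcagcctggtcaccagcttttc
SAMD9: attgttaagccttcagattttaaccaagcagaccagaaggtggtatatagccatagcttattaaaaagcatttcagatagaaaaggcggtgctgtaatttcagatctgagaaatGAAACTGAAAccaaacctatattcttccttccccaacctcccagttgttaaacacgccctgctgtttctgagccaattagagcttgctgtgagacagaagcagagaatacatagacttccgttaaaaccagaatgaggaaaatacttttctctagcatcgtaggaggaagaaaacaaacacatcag
PARP9: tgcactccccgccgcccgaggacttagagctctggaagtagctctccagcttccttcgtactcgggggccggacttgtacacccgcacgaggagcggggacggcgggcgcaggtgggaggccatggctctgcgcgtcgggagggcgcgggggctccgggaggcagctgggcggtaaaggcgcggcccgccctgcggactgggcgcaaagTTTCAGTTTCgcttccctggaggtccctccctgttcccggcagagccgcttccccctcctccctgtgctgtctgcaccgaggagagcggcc

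The matches lay on the gene's strand in IFITM3 and SAMD9 and on the opposite strand in IFIT3 and PARP9. Over the 22 members there were 43 matches at separate positions, some of them overlapping, of which 42 began before the annotated start and 21 within the last 100 bases before it. Among the 21 measured members with an ISRE, 13 lay higher and 8 lower in knockdown cells, with a median log2 difference of 0.06. For the 10 measured members with a window but without those letters the counts were 7 and 3 and the median was 0.16. RIGI, the member that lay lowest, was among the 10, and no match says only that these letters are not in that window.

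**Figure D1:**
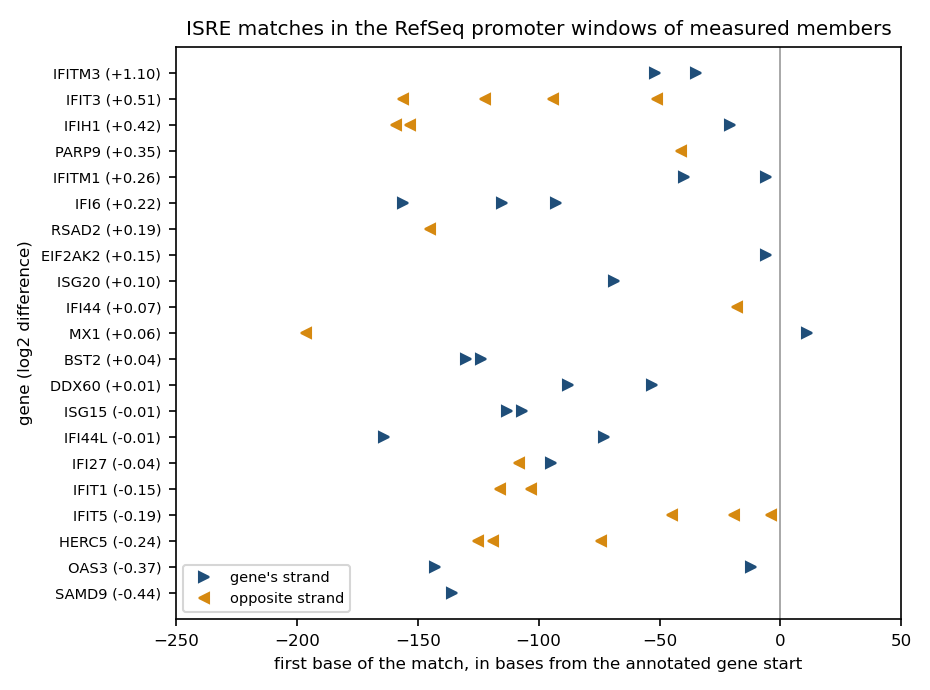
Position of each ISRE match (first base, in bases from the annotated gene start) for the measured members with a match, with arrows for the strand and the log2 difference of each gene in parentheses. Only genes with a match are drawn, from IFITM3 (1.10) at the top to SAMD9 (-0.44) at the bottom, so RIGI, the lowest member, is absent. Of all 43 matches, 21 fall in the 100 bases before the start.

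As a set, the interferon-stimulated genes held a few members that lay higher, fewer that lay lower and a majority close to the control level. The largest difference was that of IFITM3, which blocks virus entry at endosomal membranes. None of the 41 members passed an adjusted p of 0.05 in limma, where 0.174% of all genes did. At an unadjusted p under 0.05 there were 7 higher members (17.1%, against 6.25% of all genes) and 3 lower ones (7.32%, against 8.04%). The groups did not overlap for 15 members that lay higher (36.6%, against 22.5% of all genes) and 6 that lay lower (14.6%, against 23%). The difference was under 0.25 on the log2 scale in either direction for 27 of 41 members (65.9%), and for 80.7% of all genes. The median log2 difference (knockdown minus control) was 0.0591, and 0.0082 over all genes. It was 0.165 in knockdown replicate 1 and -0.0225 in knockdown replicate 2, against the mean of both controls. Without knockdown replicate 2, 32 of the 41 members lay higher, and without knockdown replicate 1, 20 did, so the direction of the median depended on the array.

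**Figure D2:**
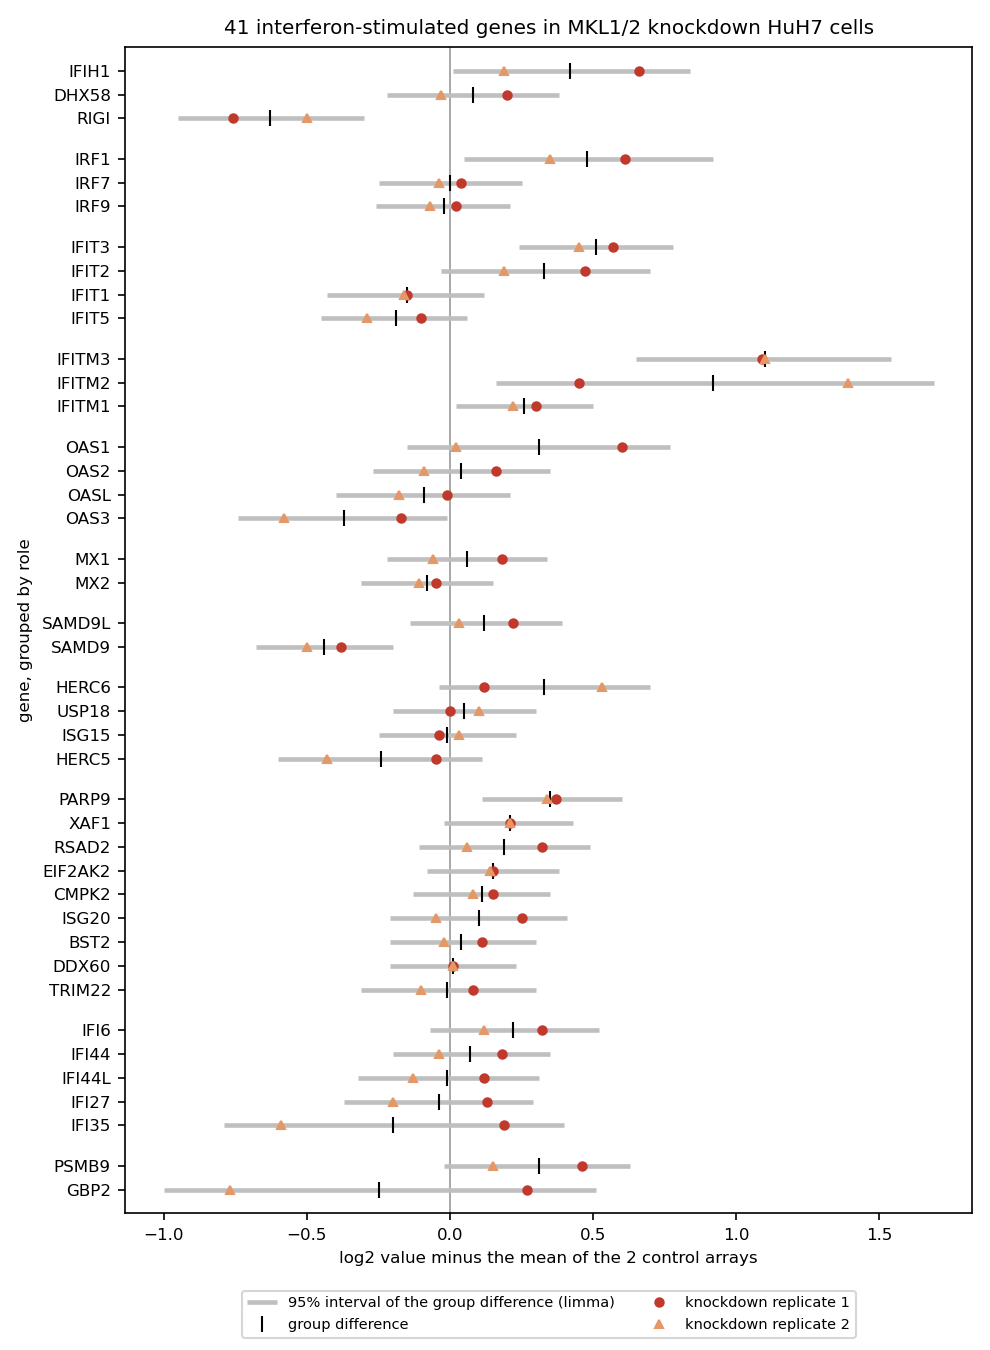
Log2 value of each of the 41 measured members in knockdown replicate 1 (circles) and replicate 2 (triangles) minus the mean of the 2 control arrays, with the group difference (black tick) and its 95% limma interval (grey bar), grouped by role. The 3 IFITM genes lie to the right of zero on both arrays and RIGI, SAMD9 and OAS3 to the left. GBP2, IFITM2, IFI35 and OAS1 lie far apart on the 2 arrays.

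Several members were dim, which limits what their values show. On all 4 arrays, 9 members (BST2, DDX60, IFI44, IFI44L, IFIT1, IFIT2, RSAD2, SAMD9L and TRIM22) lay under the lower quartile of their array (3.99 to 4.02), and 15 members lay above the median. Of the members with an unadjusted limma p under 0.05, IFITM2, IFITM3 and OAS3 were among the 15. RIGI, SAMD9, IFIT3, PARP9, IRF1, IFIH1 and IFITM1 were not. No background level is known for these values, and differences of the 9 are given as log2 values only. The values come from bulk RNA, in which fewer cells expressing a gene and less RNA per cell cannot be told apart. The arrays had medians of 5.68 to 5.73. The MRTFA probe, which also lists RBM15, fell by 0.93 on the log2 scale in knockdown cells (SE 0.096, limma adjusted p = 0.0404). A reduction of MRTFB was not shown (-0.23, SE 0.12, limma adjusted p = 0.448). Both adjusted p-values come from a separate limma fit, in which the MRTFA probe was added to the genes tested. All 8 measured hepatocyte markers read between 9.91 and 12.43. Of 6 measured leukocyte markers 3 lay above the median of all probes on every array, among them LYZ (12.02 to 12.25) and CD68 (8.46 to 9.42). PTPRC, which marks leukocytes in general, lay below the lower quartile on every array, at 2.78 and 2.80 in control and 3.22 and 2.96 in knockdown cells. The mean of the leukocyte list was 6.6 and 6.63 in control and 6.87 and 6.62 in knockdown cells, all 6 lay higher in the knockdown mean, and their part in the results was not tested.

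The IFITM family was the one in which every member lay higher. These small membrane proteins restrict the fusion of enveloped viruses with the cell, at the surface (IFITM1) or in endosomes (IFITM2 and IFITM3). IFITM3 read 9.97 and 10.52 in control and 11.34 and 11.35 in knockdown cells, which put the groups 1.10 apart on the log2 scale (SE 0.182, 95% interval 0.65 to 1.54, 2.14-fold). Its knockdown values were nearly equal and both above the controls, which differed from each other. It had the smallest p of the 41 members (limma unadjusted p = 8.66e-04) but did not pass over all genes (adjusted p = 0.102). IFITM2 read 7.23 and 7.68 in control and 7.91 and 8.85 in knockdown cells, a difference of 0.92 (SE 0.314, 95% interval 0.16 to 1.69, limma adjusted p = 0.276). The groups did not overlap, but knockdown replicate 1 lay close to control replicate 2. IFITM1 read 4.74 and 4.64 in control and 4.98 and 4.91 in knockdown cells, a smaller difference of 0.26 (SE 0.099, limma adjusted p = 0.317). The 3 genes are neighbours in the genome and close paralogs, so their probes could share transcripts, and their values may not be independent.

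The IFIT genes, also neighbours of each other, split into a pair that lay higher and a pair that lay lower. IFIT proteins bind viral RNA or each other and restrain translation of foreign RNA. IFIT3, a partner that stabilises IFIT1 on RNA, read 4.22 and 4.41 in control and 4.88 and 4.77 in knockdown cells, without overlap. Its log2 difference was 0.51 (SE 0.111, 95% interval 0.24 to 0.78, limma unadjusted p = 0.00356, adjusted p = 0.15). IFIT2, the next gene along, lay at 0.33 (SE 0.149, limma adjusted p = 0.382). IFIT1, which recognises capped RNA that lacks cap methylation, lay at -0.15 (SE 0.113) and IFIT5 at -0.19 (SE 0.106). The groups did not overlap for any of the 4 genes, but IFIT1 and IFIT2 were among the dim members. Of all genes, 22.5% lay higher without overlap and 23% lower.

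The RNA sensors went in opposite directions. RIGI, formerly DDX58, detects viral RNA with a 5′ triphosphate and was the lowest of all 41 members. It read 6.11 and 5.88 in control and 5.24 and 5.50 in knockdown cells, with both knockdown arrays below both controls. Its log2 difference was -0.63 (SE 0.135, 95% interval -0.95 to -0.30, limma unadjusted p = 0.00335, adjusted p = 0.148), to 0.648 of the control level. IFIH1, which encodes the long double-stranded RNA sensor MDA5, read 3.49 and 3.65 in control and 4.23 and 3.76 in knockdown cells. Its difference was 0.42 (SE 0.169, limma adjusted p = 0.337), and knockdown replicate 2 lay just above the controls. DHX58, which encodes LGP2, a regulator of both sensors, lay at 0.08 (SE 0.123) with overlapping groups.

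Among the transcription factors IRF1 lay higher and the factors of the type I response did not. IRF1, an activator that interferon gamma induces, read 5.39 and 4.93 in control and 5.77 and 5.51 in knockdown cells. Its difference was 0.48 (SE 0.178, limma adjusted p = 0.308), but the controls were almost as far apart from each other as the group means. IRF9, the DNA-binding subunit of the STAT complex, lay at -0.02 (SE 0.098, 95% interval -0.26 to 0.21). IRF7, the amplifier of interferon alpha production, read 6.29 and 6.43 in control and 6.39 and 6.32 in knockdown cells.

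**Figure D3:**
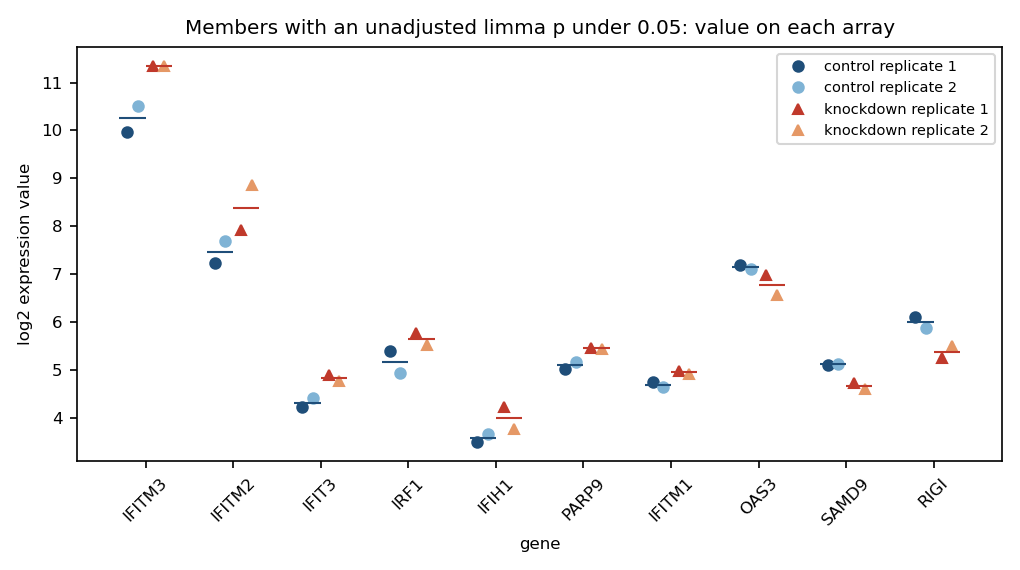
Log2 expression value on each array for the 10 members with an unadjusted limma p under 0.05, with horizontal lines at the mean of each group (n = 2). In each of the 10 genes both knockdown arrays lie on the same side of both controls, which the choice of genes by p favours. Of all genes, 22.5% lie higher and 23% lower in this way. IFITM2, IFIH1 and OAS3 show the widest gaps between the knockdown arrays.

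OAS3 and SAMD9 were the other members at the low end. OAS proteins make the second messenger that activates RNase L on double-stranded RNA. OAS3 read 7.18 and 7.11 in control and 6.98 and 6.57 in knockdown cells, a difference of -0.37 (SE 0.149, limma adjusted p = 0.337), and most of it came from knockdown replicate 2. Its neighbour OAS1 read 6.44 and 6.48 in control and 7.06 and 6.48 in knockdown cells, so that knockdown replicate 1 alone stood apart. OAS2, the other neighbour, lay at 0.04 (SE 0.127) and OASL, which lacks the synthase activity, at -0.09 (SE 0.126). SAMD9, an antiviral protein that inhibits translation, read 5.10 and 5.12 in control and 4.73 and 4.6 in knockdown cells. Its difference was -0.44 (SE 0.099, 95% interval -0.68 to -0.20, limma unadjusted p = 0.00416, adjusted p = 0.159), and its groups were clearly apart. The adjacent paralog SAMD9L, a dim gene, lay at 0.12 (SE 0.108).

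ISG15, MX1 and MX2, classical markers of an interferon response, lay close to the control level. Other members did not, such as IFITM3 (1.10) and RIGI (-0.63). ISG15, a ubiquitin-like modifier, read 6.2 and 6.08 in control and 6.09 and 6.16 in knockdown cells, a difference of -0.01 (SE 0.1, 95% interval -0.25 to 0.23). MX1, a dynamin-like GTPase that traps viral components, lay at 0.06 (SE 0.116, 95% interval -0.22 to 0.34) and MX2 at -0.08 (SE 0.093). The neighbours HERC6 and HERC5 lay at 0.33 (SE 0.151) and -0.24 (SE 0.145), and the ISG15 protease USP18 at 0.05 (SE 0.103). HERC6 read 4.43 in knockdown replicate 1 and 4.84 in replicate 2, whereas HERC5 read 4.67 and 4.29. Of the IFI genes, IFI6, a small membrane protein, lay at 0.22 (SE 0.122). IFI27, IFI44 and IFI44L lay between -0.04 for IFI27 and 0.07 for IFI44, and IFI44 and IFI44L were among the dim members. IFI35 read 6.59 and 6.72 in control but 6.85 and 6.07 in knockdown cells, 1 array above and 1 below the controls.

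Of the 9 other antiviral effectors, 8 lay higher by small amounts and PARP9 by the most. PARP9, which works with the ubiquitin ligase DTX3L, read 5.01 and 5.17 in control and 5.46 and 5.43 in knockdown cells. The difference was 0.35 (SE 0.102, 95% interval 0.11 to 0.60, limma adjusted p = 0.22), with no overlap and close agreement between the knockdown arrays. DTX3L itself, the adjacent gene, lay at 0.25 (SE 0.117, limma adjusted p = 0.394). XAF1, a proapoptotic factor, lay at 0.21 (SE 0.092), and EIF2AK2, the kinase PKR that stops translation on double-stranded RNA, at 0.15 (SE 0.095), each without overlap. The neighbours RSAD2 and CMPK2, whose enzymes act on nucleotides, lay at 0.19 (SE 0.123) and 0.11 (SE 0.099). ISG20, an exonuclease, lay at 0.10 (SE 0.127), BST2, which tethers budding virions, at 0.04 (SE 0.105), DDX60, a helicase, at 0.01 (SE 0.092) and TRIM22 at -0.01 (SE 0.125). GBP2, a guanylate-binding GTPase, read 7.81 and 7.85 in control and 8.10 and 7.06 in knockdown cells, the widest gap between knockdown arrays of all 41 members. PSMB9, a catalytic subunit of the immunoproteasome, lay at 0.31 (SE 0.133, limma adjusted p = 0.37) without overlap.

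Which members were called differed between fits that left out 1 array. With 1 knockdown array left, the spread comes from the 2 controls alone and the lone array is assumed to vary as they do. Without knockdown replicate 1, limma called IFITM2 higher (log2 difference 1.39, adjusted p = 0.0455) and GBP2 lower (-0.77, adjusted p = 0.0339), 2 of 41 members, while 1.62% of all genes were called. Without knockdown replicate 2 it called OAS1 (0.60, adjusted p = 0.0393) and IFIH1 (0.66, adjusted p = 0.0437) higher and RIGI lower (-0.76, adjusted p = 0.0437), 3 of 41 members, while 4.24% of all genes were called. GBP2 lay at 0.27 in that set, the opposite direction. With either control left out none of the 18417 genes was called, so these sets say nothing about which members pass. IFITM3 lay at 0.82 (adjusted p = 0.896) without control replicate 1 and at 1.37 (adjusted p = 0.382) without control replicate 2. The difference between the knockdown arrays had an SD of 0.304 over the members and 0.265 over all genes, and that between the controls 0.186 and 0.154.

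Upstream of these genes, neither the interferons nor their receptors passed the test. None of 11 measured interferon genes passed over all genes, and 10 lay lower and 1 higher (9.09% higher, against 52% of all genes). Most were dim, and IFNB1, IFNA2, IFNA5, IFNA8, IFNK, IFNE, IFNW1 and IFNG read below the lower quartile of all probes on every array. IFNB1, the interferon beta gene, read 3.1 and 3.21 in control and 3.01 and 3.16 in knockdown cells, below the lower quartile of all probes. At an unadjusted p under 0.05 there were none higher and 1 lower (9.09%, against 8.04% of all genes). That gene, IFNW1 (interferon omega), lay at -0.29 (SE 0.1, limma adjusted p = 0.276) at a similarly dim level. IFNA2, an interferon alpha gene, lay at -0.21 (limma adjusted p = 0.395) and IFNL3, a type III interferon, at 0.21 (SE 0.108, limma adjusted p = 0.436). None of 6 receptor genes passed even at an unadjusted p under 0.05 in limma, and they ran from -0.23 for IFNAR1, a type I receptor chain, to 0.32 for IFNGR1. IFNGR1, a chain of the interferon gamma receptor, read 8.85 in knockdown replicate 1 and 8.22 in replicate 2, against 8.19 and 8.22 in the controls.

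Signalling components were mixed, and none of 9 measured genes of the JAK-STAT core and its inhibitors passed over all genes in limma, with 1 higher and 1 lower (11.1% each, against 6.25% and 8.04% of all genes) at an unadjusted p under 0.05. JAK1, the kinase shared by all interferon receptors, read 10.18 and 10.06 in control and 9.77 and 9.79 in knockdown cells, a difference of -0.34 (SE 0.098, limma adjusted p = 0.222). SOCS1, the feedback inhibitor of JAK kinases, lay at 0.44 (SE 0.121, limma adjusted p = 0.211), at 7.34 and 7.37 in knockdown against 6.78 and 7.05 in control cells. Of 17 measured genes of nucleic acid sensing and interferon induction none passed in limma, 8 lay higher and 9 lower, and at an unadjusted p under 0.05 there were 2 in each direction (11.8%, against 6.25% of all genes higher and 8.04% lower). IRF2, a factor that competes with IRF1, lay at 0.57 (SE 0.123, limma adjusted p = 0.149) and NFKB1, an NF-kappaB subunit, at -0.34 (SE 0.105, limma adjusted p = 0.242). CGAS, the sensor of cytosolic DNA, read 7.58 and 7.34 in control and 7.32 and 6.37 in knockdown cells, so knockdown replicate 2 lay far below the rest.

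Antigen processing genes leaned upwards, with PSMB8 and PSME1 at the top. Of 12 measured, 11 lay higher and 1 lower (91.7% higher, against 52% of all genes), and none passed over all genes. The median log2 difference was 0.283. The list was chosen with earlier results of these data known, so these shares are a description only. At an unadjusted p under 0.05 there were 6 higher (50%, against 6.25% of all genes) and none lower in limma. PSMB8, another catalytic immunoproteasome subunit, read 4.14 and 4.24 in control and 4.90 and 4.72 in knockdown cells, a difference of 0.62 (SE 0.109, limma adjusted p = 0.116). PSME1 and PSME2, the subunits of the proteasome activator PA28, lay at 0.52 (SE 0.109, limma adjusted p = 0.137) and 0.33 (SE 0.1, limma adjusted p = 0.24). TAP1, the peptide transporter gene next to PSMB9, lay at 0.38 (SE 0.105). TAPBP, the loading factor tapasin, lay at 0.43 (SE 0.144) and B2M, the class I light chain, at 0.29 (SE 0.095). PSMB8, TAP1 and PSMB9 lie close together in the genome, and their values may not be independent. Both knockdown arrays had medians above zero, 0.342 for replicate 1 and 0.183 for replicate 2. Without knockdown replicate 2, with the spread from the controls alone, limma called PSMB8, PSME1 and TAPBP (adjusted p = 0.0316, 0.0493 and 0.0402), in a set where 4.24% of all genes were called. None of the list was called without knockdown replicate 1.

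The other interferon-inducible genes included the pair that passed the test. CXCL10, a chemokine for T cells, rose from 6.88 and 6.85 to 8.35 and 8.57 (log2 difference 1.6, SE 0.112, limma adjusted p = 0.0159). TNFSF10, the death ligand TRAIL, rose from 5.76 and 5.7 to 8.69 and 7.79 (2.51, SE 0.273, limma adjusted p = 0.0498). Of 52 measured, 32 lay higher and 20 lower. These 2 passed over all genes, both higher, where 0.174% of all genes passed. Both had been seen to change before the list was written. With a control left out no gene passed over all genes, so neither call could be made (adjusted p = 0.465 for CXCL10 and 0.685 for TNFSF10 without control replicate 1, 0.382 and 0.608 without control replicate 2). In these 2 fits the differences stayed close to their full values, at 1.62 and 1.59 for CXCL10 and 2.53 and 2.48 for TNFSF10. The size for TNFSF10 depended more on the knockdown array. It was 2.06 without knockdown replicate 1 and 2.96 without knockdown replicate 2, where CXCL10 lay at 1.71 and 1.49. At an unadjusted p under 0.05 there were 13 higher genes (25%, against 6.25% of all genes) and 3 lower ones (5.77%, against 8.04%). Among the 13, APOL6, an apolipoprotein L, lay at 0.71 (SE 0.21). It read 4.93 and 4.78 in control and 5.89 and 5.24 in knockdown cells. CXCL9 and CXCL11, chemokines of the same receptor as CXCL10, lay at -0.14 (SE 0.092) and 0.16 (SE 0.108). The ISG15 pathway enzymes UBE2L6 and UBA7 lay at 0.44 (SE 0.101, limma adjusted p = 0.159) and 0.50 (SE 0.142, limma adjusted p = 0.217), whereas ISG15 itself lay at -0.01.

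**Figure D4:**
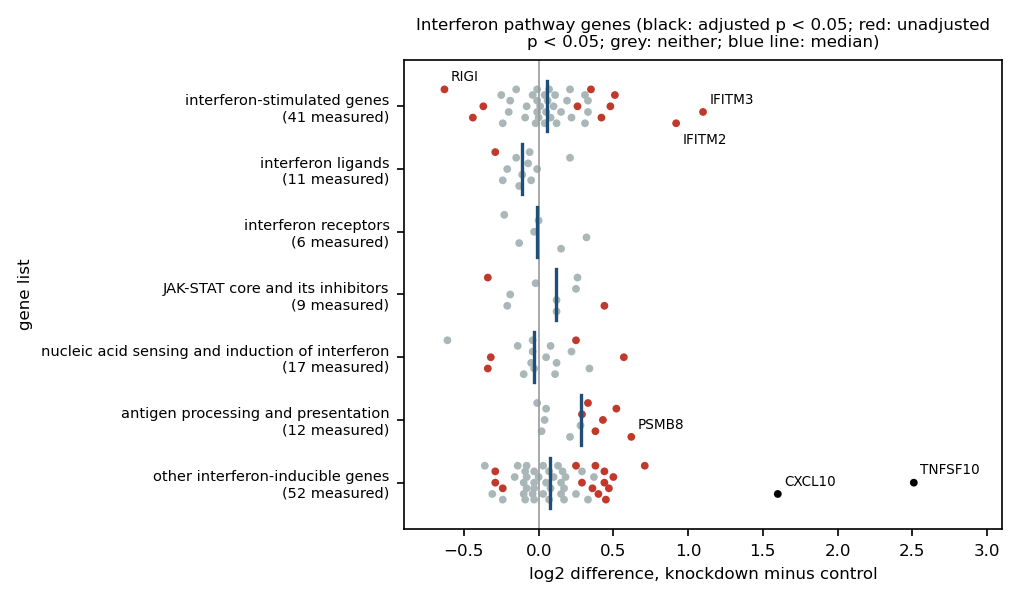
Log2 difference (knockdown minus control) of each measured gene in the interferon-stimulated set and the 6 lists of other interferon pathway genes, with black points for adjusted p under 0.05, red for unadjusted p under 0.05, grey for neither and a blue line at each median. CXCL10 and TNFSF10 stand far to the right, and the antigen processing list has the highest median, 0.283.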

How the data were processed

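Total RNA of 4 HuH7 samples was measured on 1-colour whole-transcript arrays. Per the submitters' processing notes the authors used Partek, and the deposited values are read as log2 expression from their range; how probes were background-corrected, normalized and summarized is not stated in those sources. Of 33297 probes, 19460 name 1 gene in the platform annotation; symbols were updated through RefSeq (GRCh38.p14). Groups came from the titles.

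A linear model with 1 term for the group was fitted to 18417 genes by limma (version 3.58.1, under R 4.3.3), and moderated two-sided tests from eBayes (2 residual and 4.12 prior degrees of freedom) were used, with Benjamini-Hochberg adjustment and a threshold of 0.05. Errors are limma's standard errors. The procedure was tested on simulated data. The members, the 6 pathway lists and the tests were chosen with earlier results of these data known. Values per array are given for members with an unadjusted p under 0.05 or a log2 difference of at least 0.5, and for others named after their values were seen. From each pathway list the 2 smallest p-values, and genes with both an unadjusted p under 0.05 and a difference of at least 0.5, were named, with others named after their values were seen. Alternatives changed normalization, filter, probe choice, moderation, threshold, block and arrays. The 4 arrays were not treated as pairs, since the labels tie replicate numbers to no shared day or batch.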

Additional observations from a re-analysis of the deposited data

How the results depend on the processing

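No member passed the threshold under 11 of the 14 alternatives. The fit with the replicate number as a block called 1 member, IFITM3 (limma adjusted p = 0.044, and 0.044 to 0.896 over all settings), and 93 genes in all, against 32 without the block. The labels do not say whether the numbers pair the samples. Deviations of same-numbered arrays correlated at -0.0669 over 18417 genes and at 0.111 over the 41 members. With either control left out, and without moderation, none of all genes passed, so no member could be called there. Leaving out 1 array gave 0 to 3 called members, 3 to 13 higher and 2 to 7 lower members at an unadjusted p under 0.05, 0 to 781 called genes and 0 to 12 called pathway genes. The median of the members ranged from -0.0225 to 0.165 in these sets. Without the dimmest 40% of genes 15 of the 41 members were tested, which left out RIGI, SAMD9, IFIT3, PARP9, IRF1, IFIH1 and IFITM1. Among the 15, 2 were higher and 1 lower at an unadjusted p under 0.05. Without moderation these counts were 3 and 1, and 0 of all genes and 0 of the pathway genes passed (limma, ordinary variances). For the alternatives, including those without 1 array, the share of all genes at an unadjusted p under 0.05 was not computed. The member counts at that p therefore describe the settings and are not results about the members. All genes called numbered 52 after quantile normalization, 51 with robust eBayes and 144 at an adjusted p of 0.1. An ISRE on the gene's strand alone was found for 14 members, against 22 on either strand. The causes were not tested. The number of arrays limits the precision, and no background level is known for dim genes.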

Other observations

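Apart from the MRTFA probe, probes that list several genes were outside the comparison, and their values are given without a test. The probe shared by GBP1, GBP3 and GBP1P1 read 7.73 and 7.79 in control and 7.30 and 6.75 in knockdown cells, lower on both knockdown arrays. The probe shared by USP18 and USP41P read 7.61 and 7.83 in control and 7.78 and 8.22 in knockdown cells, with overlapping groups. The 3 probes that list HLA-B and HLA-C, class I heavy chains, had log2 differences of 0.43, 0.46 and 0.52. The 3 probes that list HLA-B and HLA-F had differences of 0.30, 0.33 and 0.35. These 6 probes list overlapping genes and may share transcripts, so they are not 6 independent measurements.

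SLFN11, an interferon-inducible inhibitor of translation, read 7.18 and 7.09 in control, 7.63 in knockdown replicate 1 and 5.93 in knockdown replicate 2, the widest gap between knockdown arrays of the 107 other pathway genes. GBP2 and CGAS were also lower in knockdown replicate 2, with log2 values -1.03 and -0.95 relative to replicate 1.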
